A study of Homo sapiens with 4 samples.

Results

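The genes described here encode the route of pyruvate into the citric acid cycle and most enzymes of the cycle itself. They were chosen by name as 31 gene symbols out of the 40205 genes listed in each library. They cover pyruvate import, pyruvate carboxylase, the pyruvate dehydrogenase complex with its kinases and phosphatases, the steps from citrate to fumarate, and the side entries from glutamate and malate. The genes of succinate dehydrogenase and malate dehydrogenase were not among them. All 31 were found in the files and all 31 passed the filter on low values, an RPKM (reads divided by gene length and by the library's total reads) of at least 1 in at least 2 libraries.

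For this experiment, cells of a human lung cancer line were transfected for 24 h with a negative control (NC 1 and NC 2) or with siRNA against circZFR (si-circZFR 1 and si-circZFR 2), and RNA was sequenced with 2 libraries in each group. CircZFR is a circular RNA spliced from exons of *ZFR*. The cell line is not settled by the sources, since the sample labels give H1299, the design text gives A549, and the study's methods list A549 but not H1299. The libraries held *AKR1B10*, for which A549 cells are known, at 1296 to 1677 scaled RPKM. Of 8 markers of blood, endothelial, mesenchymal and liver cells, *PTPRC*, *CD3E*, *HBB* and *ALB* were at 0 in every library, *PECAM1* and *VWF* had at most 2 reads in a library, and *CD68* stood at 79.3 and 81.1 scaled RPKM in NC and 78.2 and 55.1 in si-circZFR, lower in both. The mesenchymal marker *COL1A1* was higher in both si-circZFR libraries, at 1.34 and 1.89 against 0.877 and 0.612 in NC. So was the epithelial gene *CDH1*, at 21.7 and 21.3 against 11.4 and 8.52. The epithelial gene *EPCAM* was higher as well, at 1.83 and 2.66 against 0.397 and 0.402, with 4 reads in each NC library. *KRT8* and *KRT18*, also epithelial, were higher in both si-circZFR libraries, with log2FC of 0.38 and 0.35. Such a position was held by 28.1% of all genes tested. *VIM*, a mesenchymal gene that lung cancer lines also express, was lower in both si-circZFR libraries, with a log2FC of -0.18. The part of such differences in the values that follow was not tested. In bulk RNA, fewer cells of a type and less RNA per cell cannot be told apart. Nothing in the labels says whether the libraries of a group came from separate cultures, so p-values measure only the spread between these samples.

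Pyruvate made by glycolysis enters mitochondria through a carrier of MPC1 and MPC2. Inside, it is either oxidized to acetyl-CoA by the pyruvate dehydrogenase complex or carboxylated to oxaloacetate by pyruvate carboxylase. The dehydrogenase is switched off when PDK kinases phosphorylate its first subunit and switched on again by PDP phosphatases. Acetyl-CoA and oxaloacetate form citrate, which the cycle oxidizes to yield NADH and FADH2 for the respiratory chain, while glutamate dehydrogenase feeds carbon from glutamine into the cycle.

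The sequences that bear on these genes, shown because 2 runs of letters were looked for in every member, are the siRNA itself and short stretches of 3′UTR. The first line gives the guide strand expected from the siRNA that the study lists against circZFR, without overhangs, with its seed (bases 2 to 8 from the 5′ end) in capitals. The other lines give 29 bases around each copy of CTGACTC, a run of letters seen earlier in the 3′UTRs of genes with lower values in these libraries, and of CTTACGT, the letters that pair with the seed of the listed guide. The searched letters are in capitals, only the transcribed strand was searched, and the transcripts are the canonical ones of GENCODE 44 (GRCh38).
si-circZFR guide: gACGUAAGggccagcuugg
*GLUD1* (chr10:87051638-87051666, minus strand): ccctttctctcCTGACTCattaataatgg
*GLUD1* (chr10:87050468-87050496, minus strand): gttttccaaaaCTTACGTttcttttctgt
*DLST* (chr14:74903228-74903256, plus strand): tctcctctagaCTGACTCacattgccttg
*PDK1* (chr2:172607467-172607495, plus strand): cactccagggcCTGACTCaaaccaaaata
*PDP2* (chr16:66890604-66890632, plus strand): gtgactctggcCTGACTCttgtccatcag

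Among the members, 4 of 31 (12.9%) held CTGACTC in the 3′UTR, as did 11.3% of the 10448 tested genes with an annotated 3′UTR. With the next base added, CTGACTCA lay in 3 of the 31 (*GLUD1*, *DLST* and *PDK1*) and in 3.66% of all. CTTACGT lay in *GLUD1* alone of the 31 and in 2.71% of all. *GLUD1* was thus the member that held both runs of letters. A match is a description of these windows and not evidence of a site, and since CTGACTC came from these same libraries it is no independent support.

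Libraries held 11040050 to 12816868 reads, and a member's reads in a library ran from 14 (*MPC1*) to 2662 (*IDH1*). Relative counting error was therefore largest for *MPC1*. Between libraries, RPKM was scaled by a trimmed mean of ratios, and limma tested differences on log2(scaled RPKM + 1), a scale that understates changes of low genes. A gene was called at an adjusted p (FDR, Benjamini-Hochberg over all genes tested) under 0.05 with |log2FC| over 1. *ZFR*, the host gene of the silenced circle, was called (FDR = 0.0387 by limma). It stood at 28.9 ± 4.15 scaled RPKM in NC and 4.94 ± 0.445 in si-circZFR (SD, n = 2 each). Its reads over 4715 bases were 1437 and 1740 in NC and 284 and 267 in si-circZFR. These values do not separate the circle from linear *ZFR*. By RT-PCR, the paper found no detectable effect of its siRNA on *ZFR* in the lung cancer lines tested. The part of linear *ZFR* in the difference seen here was not tested.

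In NC cells the members spanned a wide range of levels per length. *IDH1*, the cytosolic NADP-dependent isocitrate dehydrogenase, stood highest at 76.3 ± 13.5 scaled RPKM (SD, n = 2). *IDH3B*, *SUCLG1*, *CS* and *DLST* followed at 67.2 ± 13.6, 55.1 ± 13.3, 51.6 ± 7.54 and 50.2 ± 4.50, and neighbours in this order did not differ beyond their spread. Of the regulators of pyruvate dehydrogenase, *PDK2*, *PDPR* and *PDK4* stood at 14.1, 11.02 and 7.09 on average, and the rest were lower, with *PDK3* at 2.07 ± 0.191, *PDP2* at 2.92 ± 0.440, *PDP1* at 3.15 ± 0.496 and *PDK1* at 4.70 ± 0.280. *MPC1* was lowest at 1.43 ± 0.616, and its partner *MPC2* was at 11.9 ± 2.44. The members' median of 17.9 scaled RPKM compares with 6.99 over all 13885 genes tested.

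**Figure D1:**
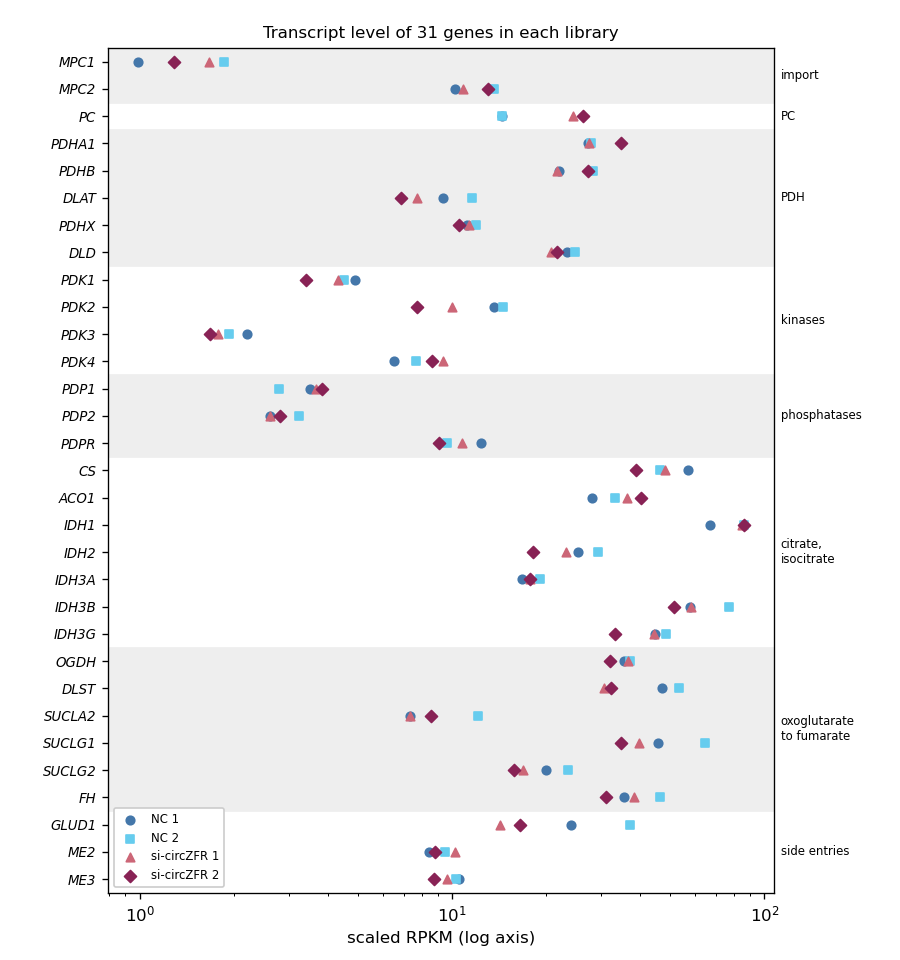
Scaled RPKM (log axis) of the 31 genes in each library, grouped by step of the pathway, with circles and squares for NC and triangles and diamonds for si-circZFR. The NC and si-circZFR points of *PC*, *PDK2*, *DLST* and *GLUD1* do not overlap, and *MPC1*, *PDK3*, *PDP2*, *PDP1* and *PDK1* lie at the low end.

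After circZFR silencing, none of the 31 genes was called, against 0.0576% of all genes tested (8 of 13885). The smallest adjusted p by limma was 0.0901, for *PC*. Without adjustment, 6 members had p under 0.05. Of these, *GLUD1*, *DLST*, *PDK2*, *SUCLG1* and *DLAT* were lower (5 of 31, 16.1%, against 11.5% of all genes tested) and *PC* was higher (1 of 31, 3.23%, against 10.1%). In 12 members both si-circZFR libraries lay below both NC libraries (38.7%, against 28.1% of all genes tested), and in 4 they lay above (12.9%, against 28.1%). The median log2FC was -0.17 over the members, with 22 lower and 9 higher, and 0.0064 over all genes tested, of which 49.3% were lower. The members' median was -0.057 without NC 2 and -0.0085 without scaling between libraries, which placed the median of all genes at 0.15. NC 2 itself stood above NC 1 by a median of 0.18 (log2) over the members, a difference of the same size as that between the groups.

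**Figure D2:**
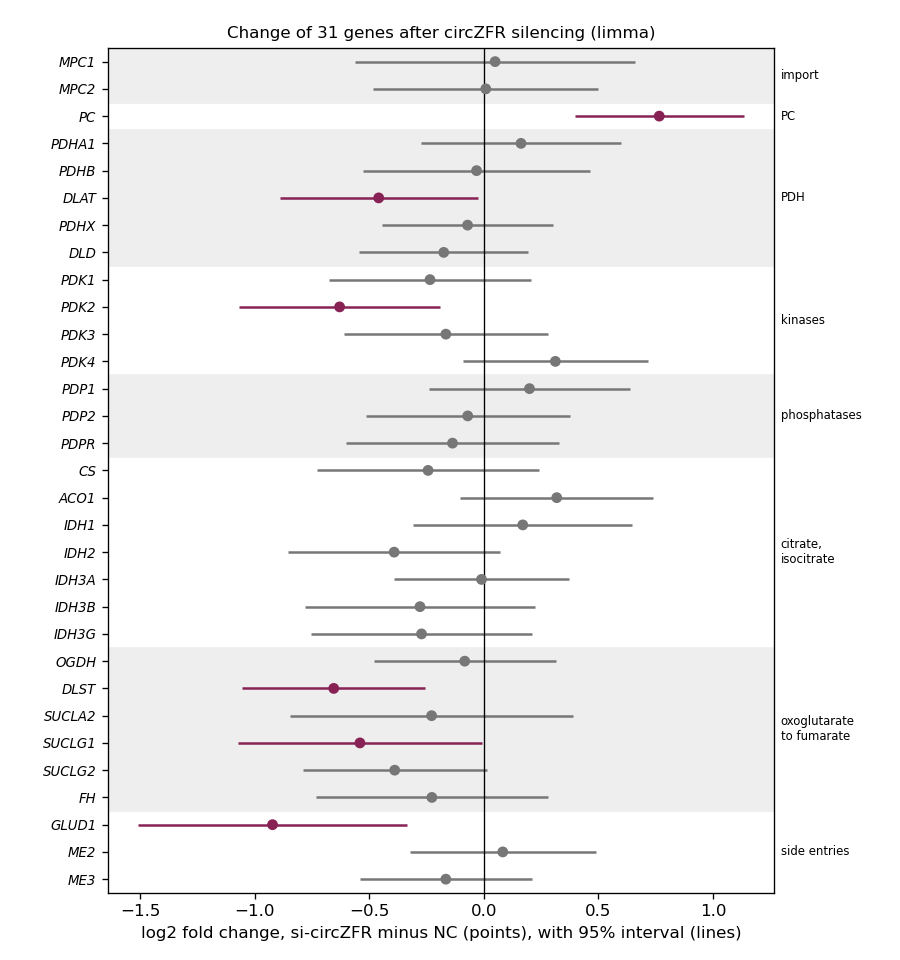
Log2 fold change (si-circZFR minus NC) of the 31 genes by limma, points with 95% intervals as lines, grouped by step of the pathway. The 6 genes with unadjusted p under 0.05 are in dark red, and *PC* is the one to the right of 0.

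Both genes of the pyruvate carrier overlapped between the groups. *MPC2* read 10.2 and 13.6 scaled RPKM in NC and 10.8 and 13.0 in si-circZFR. Its log2FC was 0.0083 with a 95% interval from -0.48 to 0.50. *MPC1* rested on 14 and 26 reads in NC and 23 and 19 in si-circZFR. The interval of its log2FC ran from -0.56 to 0.66, so that differences within these bounds remained compatible with the values. Within each library *MPC1* was lower than *MPC2* by a log2 ratio of -3.36 and -2.87 in NC and -2.70 and -3.34 in si-circZFR, and the groups overlapped.

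*PC* (chromosome 11, 66848417 to 66958386 of GRCh38) encodes pyruvate carboxylase, which replenishes oxaloacetate. It read 14.4 and 14.5 scaled RPKM in the NC libraries, against 24.3 and 26.2 after silencing. The si-circZFR libraries lay above the NC libraries, and replicates differed by at most 0.10 on the log2 scale. The log2FC was 0.77 (SE 0.15), and the mean was 74.9% above that in NC. Leaving out any library kept it between 0.72 and 0.83. *PC* had FDR = 0.0387 by limma when only genes with an RPKM of at least 10 were tested and FDR = 0.0460 by limma-voom on recovered reads, and its log2FC stayed under the threshold of 1 in each.

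Of the pyruvate dehydrogenase complex, only *DLAT* had an unadjusted p under 0.05. *DLAT*, the acetyltransferase at the core of the complex, read 9.34 and 11.5 scaled RPKM in NC and 7.73 and 6.86 in si-circZFR. The si-circZFR values lay below both NC values. By limma, *DLAT* had FDR = 0.213 and a log2FC of -0.46 (SE 0.17). It moved to -0.32 without NC 2 and -0.60 without NC 1.

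*PDHA1*, the subunit that the kinases phosphorylate, read 27.2 and 27.8 in NC and 27.4 and 34.7 in si-circZFR. Only si-circZFR 2 stood apart from the other libraries, and the log2FC was 0.16 with an interval from -0.28 to 0.60, and 0.0095 without si-circZFR 2. *PDHB*, its partner in the first enzyme, and *PDHX*, which binds the third enzyme to the core, overlapped between groups with log2FC of -0.032 and -0.071. *DLD*, the dehydrogenase shared with the oxoglutarate complex, was lower in both si-circZFR libraries at a log2FC of -0.18 (interval from -0.54 to 0.19). Within each library the log2 ratio of *PC* to *PDHA1*, which does not depend on scaling between libraries, was -0.92 and -0.94 in NC and -0.17 and -0.41 in si-circZFR. This ratio was chosen after the values were seen.

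Of the 4 kinases of pyruvate dehydrogenase, 3 were lower and 1 was higher in both si-circZFR libraries, positions that 28.1% and 28.1% of all genes tested held. *PDK2* (chromosome 17, 50094737 to 50112152 of GRCh38), a widely expressed kinase, was the most abundant of them in NC. It read 13.7 and 14.6 scaled RPKM in NC and 9.97 and 7.70 in si-circZFR. Here the groups did not overlap, and limma gave FDR = 0.143 with a log2FC of -0.63 (SE 0.18). Leaving out any library kept it between -0.78 and -0.45. *PDK4*, known as a kinase induced by fasting and fatty acids, read 6.52 and 7.65 in NC and 9.38 and 8.65 in si-circZFR. Both si-circZFR values lay above both NC values, at a log2FC of 0.31 with an interval from -0.091 to 0.71. *PDK1*, a target of hypoxia-inducible factor, read 4.90 and 4.50 in NC and 4.31 and 3.41 in si-circZFR. It was lower in both si-circZFR libraries by a log2FC of -0.24 (interval from -0.67 to 0.20), and *PDK3* by -0.17 (interval from -0.61 to 0.28).

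The shares of *PDK2* and *PDK4* among kinase transcripts did not overlap between the groups, whereas those of *PDK1* and *PDK3* did. *PDK2* made up 50.1% and 50.9% of summed PDK RPKM in NC and 39.2% and 35.9% in si-circZFR. *PDK4* made up 23.9% and 26.7% in NC and 36.9% and 40.4% in si-circZFR, so that it stood above *PDK2* in si-circZFR 2 but not in the other 3 libraries. *PDK1*, whose share was planned as a readout, held 17.9% and 15.7% against 16.9% and 15.9%, with overlapping groups. The difference of means was -12.9 percentage points for *PDK2* and 13.3 for *PDK4*, against an SD within a group of at most 2.46. These 2 shares were chosen after the values were seen and are therefore given as a description, with no test.

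**Figure D3:**
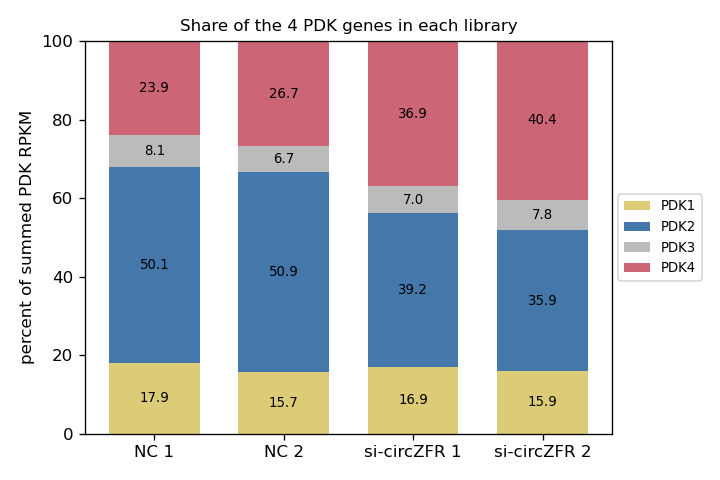
Stacked bars show the share of each PDK gene in the summed PDK RPKM of each library, in percent. *PDK2* holds 50.1 and 50.9 percent in NC and 39.2 and 35.9 percent in si-circZFR, while *PDK4* holds 23.9 and 26.7 percent and then 36.9 and 40.4 percent.

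The phosphatases that reverse this phosphorylation gave no unadjusted p under 0.05. *PDP1* was higher in both si-circZFR libraries at a log2FC of 0.20 (interval from -0.24 to 0.64), and *PDP2* overlapped at -0.071. *PDPR*, the regulatory subunit, overlapped at -0.14, and its value is uncertain because a near-identical copy, listed as *LOC283922* (*PDPR2P* in RefSeq), held 73 to 149 reads per library. Between kinases and phosphatases, the log2 ratio of summed PDK to summed *PDP1* and *PDP2* RPKM was 2.16 and 2.25 in NC and 2.02 and 1.69 in si-circZFR, lower in both si-circZFR libraries. It was chosen after the values were seen.

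From citrate to oxoglutarate, none of the 7 genes had an unadjusted p under 0.05. *CS*, citrate synthase, read 56.9 and 46.2 scaled RPKM in NC and 47.9 and 38.9 in si-circZFR, and the groups overlapped. Its log2FC was -0.24 with an interval from -0.73 to 0.24, and -0.083 without si-circZFR 2. *ACO1*, the cytosolic aconitase that also binds iron-responsive RNA elements, lay above both NC values in both si-circZFR libraries, with a log2FC of 0.32 (interval from -0.10 to 0.74). The NAD-dependent isocitrate dehydrogenase of the cycle is built from 3 genes. Its catalytic subunit *IDH3A* read 16.7 and 19.1 in NC and 17.7 and 17.8 in si-circZFR, with both si-circZFR values between those of NC. *IDH3B* overlapped at a log2FC of -0.28, and *IDH3G* was lower in both si-circZFR libraries at -0.27 (interval from -0.75 to 0.21). These values moved to -0.078 for *IDH3B* without NC 2 and to -0.059 for *IDH3G* without si-circZFR 2.

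*IDH1* and *IDH2* catalyse the same NADP-dependent reaction in the cytosol and in mitochondria. *IDH1* read 66.7 and 85.8 in NC and 84.7 and 85.8 in si-circZFR, with overlapping groups. *IDH2* read 25.2 and 29.4 in NC and 23.2 and 18.2 in si-circZFR, lower in both si-circZFR libraries, at a log2FC of -0.39 (interval from -0.86 to 0.072), and of -0.21 without si-circZFR 2. Within each library the log2 ratio of *IDH1* to *IDH2* was 1.40 and 1.54 in NC and 1.87 and 2.24 in si-circZFR. The ratio was thus higher after silencing in both libraries, by 0.58, a value that ran from 0.39 to 0.77 as each library was left out. For this planned ratio an exact permutation test gave a two-sided p of 0.333, the smallest that 2 libraries against 2 allow.

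From oxoglutarate to fumarate all 6 genes were lower on average, as were 49.3% of all genes tested. Of the 6, 2 had an unadjusted p under 0.05, where 11.5% of all genes tested were lower with such a p. Of the rest, *OGDH* was at 0.085 (log2FC) without scaling and 0.022 without si-circZFR 2, and *SUCLA2* at 0.097 without NC 2. *DLST* (chromosome 14, 74881891 to 74903743 of GRCh38), the succinyltransferase core of the oxoglutarate dehydrogenase complex, read 47.0 and 53.4 scaled RPKM in NC and 30.6 and 32.3 in si-circZFR. There was no overlap, and the log2FC of -0.66 (SE 0.16) had FDR = 0.119 by limma. With each library left out in turn it stayed between -0.75 and -0.57. Its pseudogene *DLSTP1* had 95 and 113 reads in NC and 58 and 69 in si-circZFR, so reads could be split between these near-identical copies. *OGDH*, the first enzyme of the same complex, read 35.4 and 37.0 in NC and 36.5 and 31.9 in si-circZFR. These overlapped, with an interval of the log2FC from -0.48 to 0.31. Within each library the log2 ratio of *OGDH* to *DLST*, chosen after the values were seen, was -0.41 and -0.53 in NC and 0.25 and -0.016 in si-circZFR.

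Succinyl-CoA ligase pairs the shared subunit *SUCLG1* with either *SUCLA2* (ATP-forming) or *SUCLG2* (GTP-forming). *SUCLG1* read 45.7 and 64.5 in NC and 39.5 and 34.6 in si-circZFR, without overlap. *SUCLG1* had FDR = 0.226 by limma at a log2FC of -0.54 (SE 0.22), and the log2FC was -0.30 without NC 2. *SUCLG2* read 19.96 and 23.5 in NC and 16.9 and 15.8 in si-circZFR, without overlap, at a log2FC of -0.39 (interval from -0.79 to 0.013). *SUCLA2* read 7.33 and 12.1 in NC and 7.32 and 8.57 in si-circZFR, where NC 2 alone stood high. The log2 ratio of *SUCLA2* to *SUCLG2* was -1.45 and -0.96 in NC and -1.20 and -0.88 in si-circZFR, with overlapping groups. *FH*, fumarase, overlapped at a log2FC of -0.23, which was -0.046 without NC 2. Values of *SUCLG2* and *FH* are uncertain as well, since the pseudogene *SUCLG2P2* had 179 to 263 reads per library and *FHP1* had 18 to 32.

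*GLUD1* (chromosome 10, 87050202 to 87094843 of GRCh38), the mitochondrial glutamate dehydrogenase, had the largest log2FC of the 31. It read 24.1 and 37.2 scaled RPKM in NC, with NC 2 the higher, and 14.2 and 16.5 after silencing. The groups did not overlap, and the difference of the si-circZFR mean from that of NC was -49.8%. On the log2 scale it was -0.92 (SE 0.24), with FDR = 0.125 by limma. The NC libraries themselves differed by 0.60 (log2), and the log2FC was -0.62 without NC 2 and -1.23 without NC 1, where *GLUD1* was called (FDR = 0.0356 by limma), as were 6.93% of all genes tested without that library. *GLUD2*, a retrocopy of *GLUD1* with near-identical sequence, read 17.6 and 24.1 in NC and 8.33 and 8.71 in si-circZFR, with FDR = 0.0811 by limma. Its 3′UTR also holds CTGACTC (chromosome X, 121049446 to 121049474 for the 29 bases around it). How reads were split between *GLUD1* and *GLUD2* is not stated, so their single values are uncertain.

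The malic enzymes *ME2* and *ME3*, which make pyruvate from malate in mitochondria, had no unadjusted p under 0.05. *ME2* overlapped at a log2FC of 0.082 (interval from -0.32 to 0.49). *ME3* was lower in both si-circZFR libraries at -0.17 (interval from -0.54 to 0.21).

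**Figure D4:**
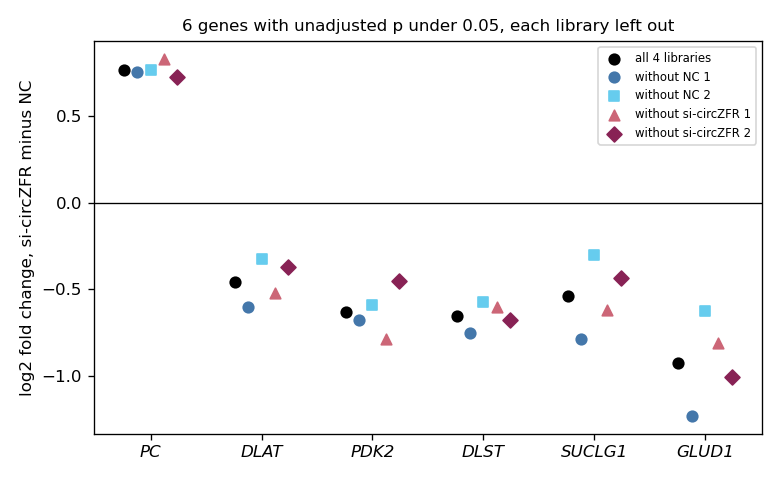
Log2 fold change (si-circZFR minus NC) of the 6 genes with unadjusted p under 0.05, with all 4 libraries (black circles) and with each library left out. *PC* stays between 0.72 and 0.83 and *GLUD1* moves from -0.62 without NC 2 to -1.23 without NC 1.

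Of the 3 genes whose 3′UTR holds CTGACTCA, *GLUD1* and *DLST* were among the members with unadjusted p under 0.05 and *PDK1* was not. *PDP2*, which holds CTGACTC followed by another base, overlapped between the groups. *PDK2*, *SUCLG1* and *DLAT* held none of the searched letters in their 3′UTR. Because CTGACTC came from these same libraries, these positions are a description and no support for a link. How many of all genes holding CTGACTCA were lower was not counted.

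Promoters from 250 bases before to 50 bases after the start were found for 29 of the 31 genes (RefSeq, GRCh38.p14), and fixed letters were searched on both strands. Letters of the SP1 box, GGGCGGG, lay in 15 of the 29 (51.7%) and in 55.4% of the 8759 promoters of tested genes. Letters bound by ETS factors, CCGGAAG, lay in 4 (13.8%, against 19.99%). An E-box, CACGTG, lay in 3 (10.3%, against 10.4%), and AAGGTCA, the core bound by oestrogen-related receptors, in 1 (3.45%, against 2.48%). The NRF1 letters GCGCATGC and the CRE letters TGACGTCA lay in none of the 29 (5.78% and 3.35% of all). The promoter of *PC*, the one member higher with an unadjusted p under 0.05, is shown with its 2 copies of the SP1 box in capitals.
*PC* promoter (chr11:66958334-66958633, minus strand): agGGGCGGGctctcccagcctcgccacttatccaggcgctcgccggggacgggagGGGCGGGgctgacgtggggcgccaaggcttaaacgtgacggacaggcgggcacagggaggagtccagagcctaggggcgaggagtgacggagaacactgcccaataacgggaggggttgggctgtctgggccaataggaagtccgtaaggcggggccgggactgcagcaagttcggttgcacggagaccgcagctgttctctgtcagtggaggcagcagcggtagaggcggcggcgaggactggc

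Of 33 neighbouring genes of pyruvate, glutamine and citric acid cycle metabolism, 32 were listed and 28 tested. Of the 28, 1 was called, against 0.0576% of all genes tested. It was *MDH1*, the cytosolic malate dehydrogenase, at 132.8 ± 23.2 scaled RPKM in NC and 19.9 ± 3.92 in si-circZFR (SD, n = 2 each). No gene was called without the filter on low values or without NC 2, si-circZFR 1 or si-circZFR 2, so the calls of *MDH1* and *ZFR* ended there. Only 1 gene was called without a trend in the prior variance and 2 with a pseudocount of 0.1. At least 1 of these calls was therefore also lost without the trend. Without adjustment, 4 of the 28 were lower with p under 0.05 (*MDH1*, *GLUD2*, *SDHD* and *MRPS36*), against 11.5% of all genes tested. Of the 28, 1 was higher with p under 0.05 (*ME1*, the cytosolic malic enzyme), against 10.1% of all genes tested. *ME1* was at 17.4 scaled RPKM in NC and 30.5 in si-circZFR on average (log2FC 0.79, FDR = 0.1005 by limma). Apart from *MDH1*, these were named after their values were seen.

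Across the 13885 genes tested, which share libraries and are not independent replicates, the log2FC correlated with gene length at a Spearman's rho of 0.294. The difference NC 2 minus NC 1 correlated with length at -0.344, and si-circZFR 2 minus si-circZFR 1 at 0.019. The members' median length was 2695 bases, against 2677 for all genes tested, and, at a length bound chosen after seeing the data, the 9 members under 2000 bases had a median log2FC of -0.24, 8 of them lower. After a correction of each library for its trend with length, the members' median was -0.17 and *PC*, *GLUD1*, *DLST*, *PDK2*, *DLAT* and *SUCLG1* had log2FC of 0.68, -0.98, -0.52, -0.64, -0.55 and -0.41.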

How the data were processed

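Total RNA of 4 libraries was made into Ion Proton libraries, and the authors aligned the cleaned reads to the human genome (hg38 in the study's methods, GRCh37 in the submitters' processing notes). The aligner, counter and annotation are not given in the sources used here. Each deposited file holds 1 RPKM value per gene, which the authors made from reads on the gene, its length and the library total. Batch removal by SVA and testing by edgeR are stated by the authors, and no scaling between libraries was seen in the deposited RPKM values.

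Library totals were read from precursor miRNA genes of known length, whose values were whole reads (within 0.02) for 97.3% to 100% of those above 0. For each gene the smallest length that made all values whole (within 1e-06 reads, or 3e-09 of the read number where larger) gave its reads, for 24255 of 24289 genes above 0. RPKM values were scaled by unweighted trimmed means over tested genes (30% of ratios and 5% of levels trimmed), with factors from 0.904 to 1.11. Limma 3.58.1 (R 4.3.3) was run on log2(scaled RPKM + 1) with a trended prior variance. The test was also run on simulated reads, with the same dispersion for every gene and only changes with |log2FC| over 1. Smaller changes and a trend with gene length were not simulated. Values are mean ± SD, and 95% intervals are those of the limma fit. Read totals and recovered reads cover counting error only.

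Members and lists were chosen with earlier results of these data known. Every member was named, and values in each library were given for those with unadjusted p under 0.05 and groups apart and for *PDHA1*, *PDK1*, *PC*, *CS*, *IDH3A*, *OGDH* and *GLUD1*, with other members added where a ratio or share was given. Alternatives covered scaling, pseudocount, filters, prior variance, replicate block, gene length, limma-voom and leaving out each library. Python 3.11.15, numpy 2.4.6, pandas 2.3.3 and matplotlib 3.10.9 were used.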

Additional observations from a re-analysis of the deposited data

How the results depend on the processing

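With 2 libraries in each group, the spread within a group rests on a single difference between replicates, and no member had a |log2FC| over 1 with all libraries, as a call requires. No member was called under any of the 14 alternatives except without NC 1, where *GLUD1* was. Of 424 member values under alternatives, 393 kept their direction and side of the threshold, 30 changed sign and 1 (*GLUD1*) passed. 20 of the 31 members never changed sign. The alternative with CPM above 1, and those for the *PDK2* and *PDK4* shares and the ratios of *OGDH* to *DLST* and *PC* to *PDHA1*, were chosen after seeing the data.

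The number of all genes called was 8, with 3012 genes at an unadjusted p under 0.05 by limma. It was 2 with a pseudocount of 0.1, 0 without a filter (3639 genes at an unadjusted p under 0.05 by limma), 184 with RPKM of at least 10, 1 without a trend in the prior variance, 14 after the length correction, 368 by limma-voom and 201 with CPM above 1. With the replicate block it was 63, and 4 members were lower with unadjusted p under 0.05 and none was called. The replicate numbers are shared in the labels only, and the differences of replicate 1 and 2 in the 2 groups correlated at 0.0694 across genes. Leaving out each library gave 0 (without NC 2, si-circZFR 1 or si-circZFR 2, with 2546, 1600 and 1075 genes at an unadjusted p under 0.05 by limma) to 937 (without NC 1), 0 to 1 members called, 1 to 8 members lower and 1 to 2 higher with unadjusted p under 0.05, and a members' median of -0.19 to -0.057. A lone library was assumed to vary like the other group. The largest count of lower members came without NC 1. There, more of all genes tested had an unadjusted p under 0.05 by limma than with all libraries. That count is therefore no result about the members alone.

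Without scaling between libraries 3 members were lower and 3 higher with unadjusted p under 0.05, the members' median was -0.0085, and *PDHB*, *PDHX*, *PDP2*, *PDPR*, *IDH3A* and *OGDH* changed sign to 0.14, 0.088, 0.059, 0.021, 0.15 and 0.085. With RPKM of at least 10, 2 members were higher, and *PDHB* and *IDH3A* were at 0.035 and 0.056. *MPC2* was at -0.015 with equal medians, -0.0097 without a filter, -0.0052 by limma-voom and -0.0082 with CPM above 1. After the length correction *PDHB*, *PDHX* and *ME2* were at 0.073, 0.052 and -0.018. Leaving out single libraries gave ranges of -0.22 to 0.31 for *MPC1*, -0.19 to 0.20 for *MPC2*, -0.21 to 0.14 for *PDHB*, -0.19 to 0.042 for *PDP2*, -0.31 to 0.026 for *PDPR*, -0.014 to 0.34 for *IDH1*, -0.11 to 0.077 for *IDH3A*, -0.16 to 0.022 for *OGDH*, -0.56 to 0.097 for *SUCLA2* and -0.00046 to 0.19 for *ME2*. Without a change of sign, log2FC ran from -0.55 to -0.21 for *IDH2*, -0.49 to -0.078 for *IDH3B*, -0.46 to -0.059 for *IDH3G*, -0.42 to -0.046 for *FH*, -0.39 to -0.083 for *CS*, 0.0095 to 0.34 for *PDHA1*, -0.36 to -0.090 for *PDK1*, -0.23 to -0.11 for *PDK3*, 0.21 to 0.41 for *PDK4*, 0.074 to 0.32 for *PDP1*, 0.20 to 0.43 for *ACO1* and -0.21 to -0.093 for *ME3*. The causes were not tested.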
